A study of Mus musculus with 2 samples.

Results

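The 9 genes described here are the sensor, adaptor, protease and pore gene of the NLRP3 inflammasome (Nlrp3, Pycard, Casp1, Gsdmd), the cytokines Il1b and Il18, the antagonist Il1rn and the 2 subunits of the interleukin 1 receptor, Il1r1 and Il1rap. They were chosen by symbol, and all 9 were found among the 31053 genes listed for each library. Their transcripts were measured by droplet single-cell RNA sequencing (10x Genomics 3′ kit v3) of bone marrow from aged C57BL/6J mice. The FMT-young library came from aged recipients of gut microbiota from young mice, and the FMT-aged library from aged recipients of gut microbiota from aged mice. Both groups were therefore aged and both had been transplanted, and no untransplanted or young mouse is compared here. Per the labels, 1 part of sorted whole marrow, 1 part of Lin- and 4 parts of Lin- cKit+ cells went into each library, so progenitors are enriched over their share in marrow. There is 1 library per group, and the labels do not state how many animals it held, so every difference below is a difference between 2 libraries with no replicate check.

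The NLRP3 inflammasome is a cytosolic complex of innate immunity. Nlrp3 senses cell damage and microbial products and, through the adaptor encoded by Pycard (ASC), activates caspase-1. Caspase-1 cuts the precursors of interleukin 1 beta and interleukin 18 into active cytokines and cuts gasdermin D, whose fragment forms pores in the cell membrane. Interleukin 1 binds the receptor made of Il1r1 and Il1rap, and the product of Il1rn blocks that receptor. In marrow, interleukin 1 is known to act on hematopoietic stem and progenitor cells and to drive myeloid output. The transcripts measured here show neither processing of the proteins nor assembly of the complex.

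Nlrp3 and Il1b were the members whose levels differed most between the libraries, and Pycard, the adaptor, was at similar levels in both. The 250 bases upstream of their annotated starts in RefSeq (GRCm38.p6) are shown 5′ to 3′ on the strand of each gene, to place the genes that differed beside a component of the same complex that differed little. The capitals mark a match to a searched motif, which is TATAAA in Il1b and the reverse complement of GAGGAAGT in Pycard.
Il1b, chr2:129371140-129371389, minus strand: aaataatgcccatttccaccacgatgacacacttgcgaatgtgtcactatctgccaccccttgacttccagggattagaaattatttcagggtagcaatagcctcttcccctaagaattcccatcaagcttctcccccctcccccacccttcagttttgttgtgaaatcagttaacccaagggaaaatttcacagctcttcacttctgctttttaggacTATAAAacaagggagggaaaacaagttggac
Nlrp3, chr11:59541319-59541568, plus strand: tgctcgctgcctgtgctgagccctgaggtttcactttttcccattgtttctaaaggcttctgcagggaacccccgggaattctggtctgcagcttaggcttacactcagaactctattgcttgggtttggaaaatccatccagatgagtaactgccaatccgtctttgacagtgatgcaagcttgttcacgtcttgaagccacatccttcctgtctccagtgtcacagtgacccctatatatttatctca
Pycard, chr7:127993868-127994117, minus strand: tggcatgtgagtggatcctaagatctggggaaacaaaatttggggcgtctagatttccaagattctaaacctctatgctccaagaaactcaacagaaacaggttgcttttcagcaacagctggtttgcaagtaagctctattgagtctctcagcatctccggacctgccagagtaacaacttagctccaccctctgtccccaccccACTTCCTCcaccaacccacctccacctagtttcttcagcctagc

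Each of 5 motifs was searched on both strands of these windows, and 8 of the 9 members had an entry among 32851 promoters. TATAAA was found in 12.4% of all promoters and, among the members, 31 bases upstream of the start in Il1b and 175 bases upstream in Il18. TGANTCA, the AP-1 motif, was in 6.75% of promoters and 141 bases upstream of a start of Il1rn. GAGGAAGT, an ETS motif, was in 2.44% of promoters and 44 bases upstream of the start of Pycard. A kappa B motif, GGGA and TCC on either side of any 3 bases, was in 3.86% of promoters and TGACGTCA, the CRE motif, in 1.55%, and neither was found in a member's window. The printed Nlrp3 window held none of the 5. Nlrp3 has a second annotated start, and its window held none either. No match says only that these letters are not in these windows.

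In GENCODE vM21 (GRCm38) all 9 are protein-coding genes. Nlrp3 lies at chr11:59541568-59566956 on the plus strand, and Il1b at chr2:129364570-129371139 on the minus strand. Il1rn is on chromosome 2, Il1r1 on chromosome 1, Il1rap on chromosome 16, Il18 and Casp1 on chromosome 9, Pycard on chromosome 7 and Gsdmd on chromosome 15. Il1b overlaps the opposite-strand gene Il1bos, Il1rap overlaps Gm20319, and Il18 overlaps Bco2 and Tex12. Whether strand was used in the counting is not given in the sources used here, so reads of these pairs may not be told apart.

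The libraries held 214982156 UMIs (FMT-young) and 207642851 UMIs (FMT-aged), a UMI being a counted RNA molecule. The analysis kept 10793 FMT-young and 10320 FMT-aged cells, whose median depth was 11049 UMIs in FMT-young and 11601 in FMT-aged. Of their barcodes 32 occurred in both libraries. Clusters were grouped into 16 classes by marker genes, of which 15 had at least 50 cells in each library and were compared, and macrophage-like cells (104 in FMT-young and 30 in FMT-aged) were not. Class names describe transcripts and not a sort gate. Levels are CPM, the UMIs of a gene scaled to the UMI total of the class in that library. Ratios are log2 of FMT-young over FMT-aged CPM. Intervals are exact 95% intervals that cover counting error only, so an interval clear of 0 does not show that the groups differ. The ratio of a member in a class was read where the 2 libraries had 30 UMIs or more of it between them, and counted as higher or lower past a fold of 2, a log2 ratio of 1 or more in size.

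Of 135 pairs of a member and a class, 86 had enough UMIs, and 12 were at least 2-fold higher in FMT-young. Over all genes, 1.86% of 133510 such pairs were higher by that fold. The 12 pairs were 6 of Nlrp3 and 6 of Il1b. None was at least 2-fold lower in FMT-young, where 1.72% of all pairs were, and the other 74 lay within the fold. The median ratio of all 86 pairs was -0.06, and that of all genes -0.07. The UMI limit was on both libraries together, so a pair could pass it mainly through the library where it was high. Il1b in monocyte-like cells, for instance, had 189 UMIs in FMT-young and 13 in FMT-aged. Under the limit were Il1b pairs with more UMIs in FMT-aged, such as basophil, eosinophil or mast-like cells with 4 in FMT-young and 15 in FMT-aged.

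**Figure D1:**
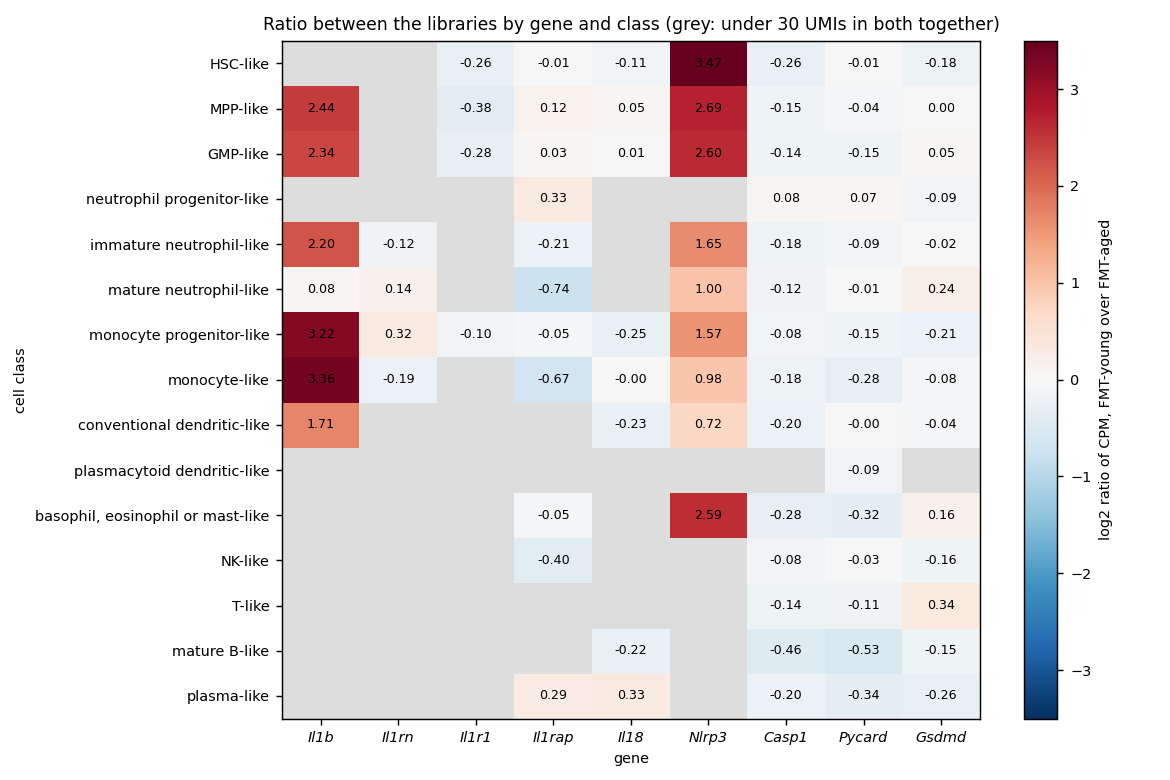
Log2 ratio of CPM, FMT-young over FMT-aged, for each of the 9 genes (columns) in each of the 15 compared classes (rows), with grey where both libraries together held under 30 UMIs. The Nlrp3 column runs from 0.72 to 3.47 and the Il1b column from 0.08 to 3.36, while the other columns lie between -0.74 and 0.34.

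Nlrp3, the sensor, was higher in FMT-young in all 9 classes with enough UMIs, and its 9 intervals lay above 0. The ratios ran from 0.72 in conventional dendritic-like cells to 3.47 in HSC-like cells, with a median of 1.65. Its level was highest in mature neutrophil-like cells, with 295 CPM in FMT-young and 148 CPM in FMT-aged. That ratio of 1.00 (interval 0.66 to 1.33) was just under the fold before rounding. Monocyte-like cells held 73.9 CPM in FMT-young and 37.5 CPM in FMT-aged, a ratio of 0.98 (0.65 to 1.32). In both of these mature classes the libraries thus stood about at the 2-fold line.

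The progenitors differed by more. Monocyte progenitor-like cells, which carry the most Nlrp3 UMIs, held 1665 of them in FMT-young and 661 in FMT-aged, or 48.3 CPM in FMT-young and 16.3 CPM in FMT-aged (ratio 1.57, 1.44 to 1.70). MPP-like cells, named for markers of multipotent progenitors, held 25.5 CPM in FMT-young and 3.95 CPM in FMT-aged (2.69, 2.40 to 2.99). GMP-like cells, which resemble granulocyte and monocyte progenitors, held 10.2 CPM in FMT-young and 1.68 CPM in FMT-aged (2.60, 2.25 to 2.97). The larger MPP-like cluster, of 686 FMT-young and 868 FMT-aged cells, met 5 GMP markers and 4 MPP markers. In the MPP-like class GMP markers summed to 22473 CPM in FMT-young and 22294 CPM in FMT-aged. MPP markers summed to 1253 CPM in FMT-young and 1187 CPM in FMT-aged, so its values are not those of multipotent progenitors alone. In each of these progenitor classes the intervals of the 2 libraries lay apart, as they also did in mature neutrophil-like and monocyte-like cells.

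Basophil, eosinophil or mast-like cells held 35.6 CPM in FMT-young and 5.92 CPM in FMT-aged (2.59, 1.997 to 3.21), and immature neutrophil-like cells held 42.9 CPM in FMT-young and 13.7 CPM in FMT-aged (1.65, 1.04 to 2.30). In conventional dendritic-like cells the levels were 26.3 CPM in FMT-young and 15.996 CPM in FMT-aged (0.72, 0.24 to 1.20). Macrophage-like cells, too few in FMT-aged to compare, held 26.9 CPM in FMT-young and 27.2 CPM in FMT-aged, from 15 UMIs in FMT-young and 3 in FMT-aged. HSC-like cells, named for stem cell markers, met 6 HSC markers and 6 MPP markers. Their HSC markers summed to 1291 CPM in FMT-young and 1250 CPM in FMT-aged. MPP markers summed to 2470 CPM in FMT-young and 2480 CPM in FMT-aged, so the values are not those of stem cells alone. This class had the largest Nlrp3 ratio on the fewest molecules. It held 37 UMIs in 26 of 573 cells in FMT-young and 4 UMIs in 4 of 680 cells in FMT-aged. Most of these UMIs were not in the cells richest in stem cell genes: at a finer clustering, 33 UMIs in FMT-young and 3 in FMT-aged lay in a cluster that also expresses Flt3, and the cluster highest in Mecom and Procr held 4 in FMT-young and 1 in FMT-aged. In HSC-like cells the 9 monocyte markers, of which Klf4 is also an immediate early gene, summed to 765 CPM in FMT-young and 369 CPM in FMT-aged, with none at 0. Of 7 with enough UMIs 2 were at least 2-fold higher in FMT-young, where 1.23% of all genes were. In basophil, eosinophil or mast-like cells the monocyte markers summed to 510 CPM in FMT-young and 322 CPM in FMT-aged, with 4 of 8 higher past the fold (1.86% of all genes). The part of these markers in the Nlrp3 ratios was not tested.

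The share of cells with an Nlrp3 UMI moved the same way when cells were thinned to 2000 UMIs. Cells with fewer UMIs were left out of the thinned shares. These were 45 of 257 FMT-young and 52 of 253 FMT-aged mature neutrophil-like cells, and 115 of 386 and 183 of 558 T-like cells. In mature neutrophil-like cells it was 40.6% in FMT-young and 23.4% in FMT-aged, and 53.7% in FMT-young and 29.2% in FMT-aged before thinning. In monocyte progenitor-like cells it was 9.12% in FMT-young and 2.73% in FMT-aged thinned, and 50.3% in FMT-young and 28.6% in FMT-aged unthinned. T-like cells, which are known for little Nlrp3, had a thinned share of 0.37% in FMT-young and 0% in FMT-aged, and 2 UMIs in FMT-young and 0 in FMT-aged in all. The 0 of 375 thinned FMT-aged cells allow a share of up to 0.979% (exact binomial), and 0 UMIs allow up to 1.95 CPM at 3 counts. Unthinned median depths in FMT-young were 2901 UMIs in mature neutrophil-like cells, 25174.5 in monocyte progenitor-like cells and 2487 in T-like cells, and in FMT-aged 2651, 26150 and 2408 UMIs in the same order of classes. NK-like cells had 7 UMIs in FMT-young and 0 in FMT-aged, neutrophil progenitor-like cells 4 in FMT-young and 0 in FMT-aged, and mature B-like cells 3 in FMT-young and 6 in FMT-aged, all too few for a ratio. The level was therefore low both in lymphoid cells and in neutrophil progenitor-like cells, which lie between GMP-like and immature neutrophil-like cells in granule maturation.

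Among compared classes, the order of Nlrp3 levels after mature neutrophil-like and monocyte-like cells was monocyte progenitor-like (mean of both libraries 32.3 CPM), immature neutrophil-like (28.3 CPM), conventional dendritic-like (21.2 CPM) and basophil, eosinophil or mast-like cells (20.8 CPM). The ranges of the 2 libraries overlap among these 4, so their order is not settled.

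**Figure D2:**
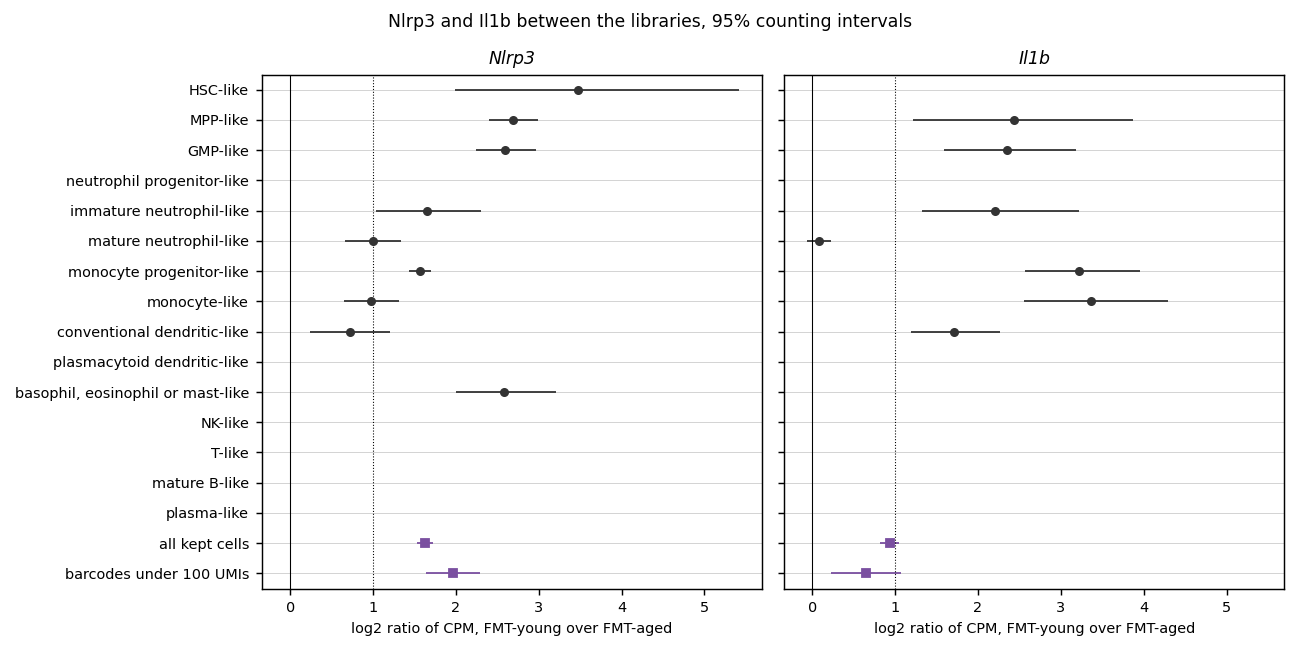
Log2 ratio of CPM, FMT-young over FMT-aged, of Nlrp3 (left) and Il1b (right) by class, with 95% counting intervals, where both libraries held at least 30 UMIs together. Circles are classes and squares are all kept cells and barcodes under 100 UMIs, the solid line is 0 and the dotted line the 2-fold limit. All Nlrp3 points lie above 0, from 0.72 to 3.47, and Il1b in mature neutrophil-like cells, at 0.08, is the point nearest 0.

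The difference in Nlrp3 was not confined to called cells. In barcodes under 100 UMIs, which mostly hold free RNA, Nlrp3 stood at 50.7 CPM in FMT-young and 13.003 CPM in FMT-aged (1.96, 1.65 to 2.29). Il1b there was 15.8 CPM in FMT-young and 10.1 CPM in FMT-aged (0.64, 0.23 to 1.07). With free RNA subtracted Nlrp3 was still higher in FMT-young in all 9 classes, least so in conventional dendritic-like cells (0.45). The free RNA share was estimated at 14.5% in FMT-young and 4.83% in FMT-aged in conventional dendritic-like cells. It was 13.7% in FMT-young and 1.45% in FMT-aged in basophil, eosinophil or mast-like cells, and 4.61% in FMT-young and 1.96% in FMT-aged in monocyte-like cells. Beyond that subtraction, its part in the ratios of those classes was not tested.

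Genes of the immediate early response and of NF-kB feedback, known to be induced within minutes by stimulation or tissue handling, were also higher in FMT-young. In monocyte-like cells 18 of 29 such genes with enough UMIs were at least 2-fold higher and none was 2-fold lower, against 1.79% and 0.663% of all genes in that class, with a median ratio of 1.16. The summed level of the 30 listed genes was 18314 CPM in FMT-young and 8589 CPM in FMT-aged there. In HSC-like cells 14 of 30 were at least 2-fold higher (1.23% of all genes), with sums of 30396 CPM in FMT-young and 14962 CPM in FMT-aged. In mature neutrophil-like cells 7 of 26 were (1.33% of all genes), with sums of 35431 CPM in FMT-young and 26756 CPM in FMT-aged. None of the 30 genes was at 0 in either library in monocyte-like and HSC-like cells, and 1 was in each library in mature neutrophil-like cells. The part of this in the levels of Nlrp3 and Il1b was not tested.

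Pycard, the adaptor, was measured in all 15 compared classes, and no ratio reached the fold. The ratios ran from -0.53 in mature B-like cells to 0.07 in neutrophil progenitor-like cells, and 6 of the 15 intervals lay below 0. It was highest in monocyte-like cells, at 401 CPM in FMT-young and 487 CPM in FMT-aged (-0.28, -0.39 to -0.17). Conventional dendritic-like cells held 293.0 CPM in FMT-young and 293.8 CPM in FMT-aged, and plasmacytoid dendritic-like cells 271 CPM in FMT-young and 289 CPM in FMT-aged. Mature neutrophil-like cells had the least, 31.8 CPM in FMT-young and 32.0 CPM in FMT-aged, and immature neutrophil-like cells had 58.8 CPM in FMT-young and 62.4 CPM in FMT-aged. Among the compared classes, the highest in Nlrp3 was thus the lowest in Pycard.

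Casp1, the protease, was found in every compared class. In 14 classes with enough UMIs its ratios ran from -0.46 to 0.08, none past the fold, with 2 intervals below 0. T-like cells held 47.1 CPM in FMT-young and 52.0 CPM in FMT-aged, and monocyte-like cells 46.1 CPM in FMT-young and 52.1 CPM in FMT-aged, so these top classes cannot be ordered. Plasma-like cells were lowest, at 10.8 CPM in FMT-young and 12.3 CPM in FMT-aged. HSC-like cells held 25.2 CPM in FMT-young and 30.05 CPM in FMT-aged.

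Gsdmd, the pore gene, had 14 ratios between -0.26 and 0.34, with none past the fold. Monocyte-like cells held 59.3 CPM in FMT-young and 62.6 CPM in FMT-aged, and mature neutrophil-like cells 61.2 CPM in FMT-young and 52.0 CPM in FMT-aged, and these ranges overlap. GMP-like cells held 43.3 CPM in FMT-young and 41.8 CPM in FMT-aged. Plasma-like cells were again lowest, at 7.78 CPM in FMT-young and 9.33 CPM in FMT-aged. Transcripts of the adaptor, the protease and the pore thus lay within the fold in the same classes in which Nlrp3 was higher in FMT-young.

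**Figure D3:**
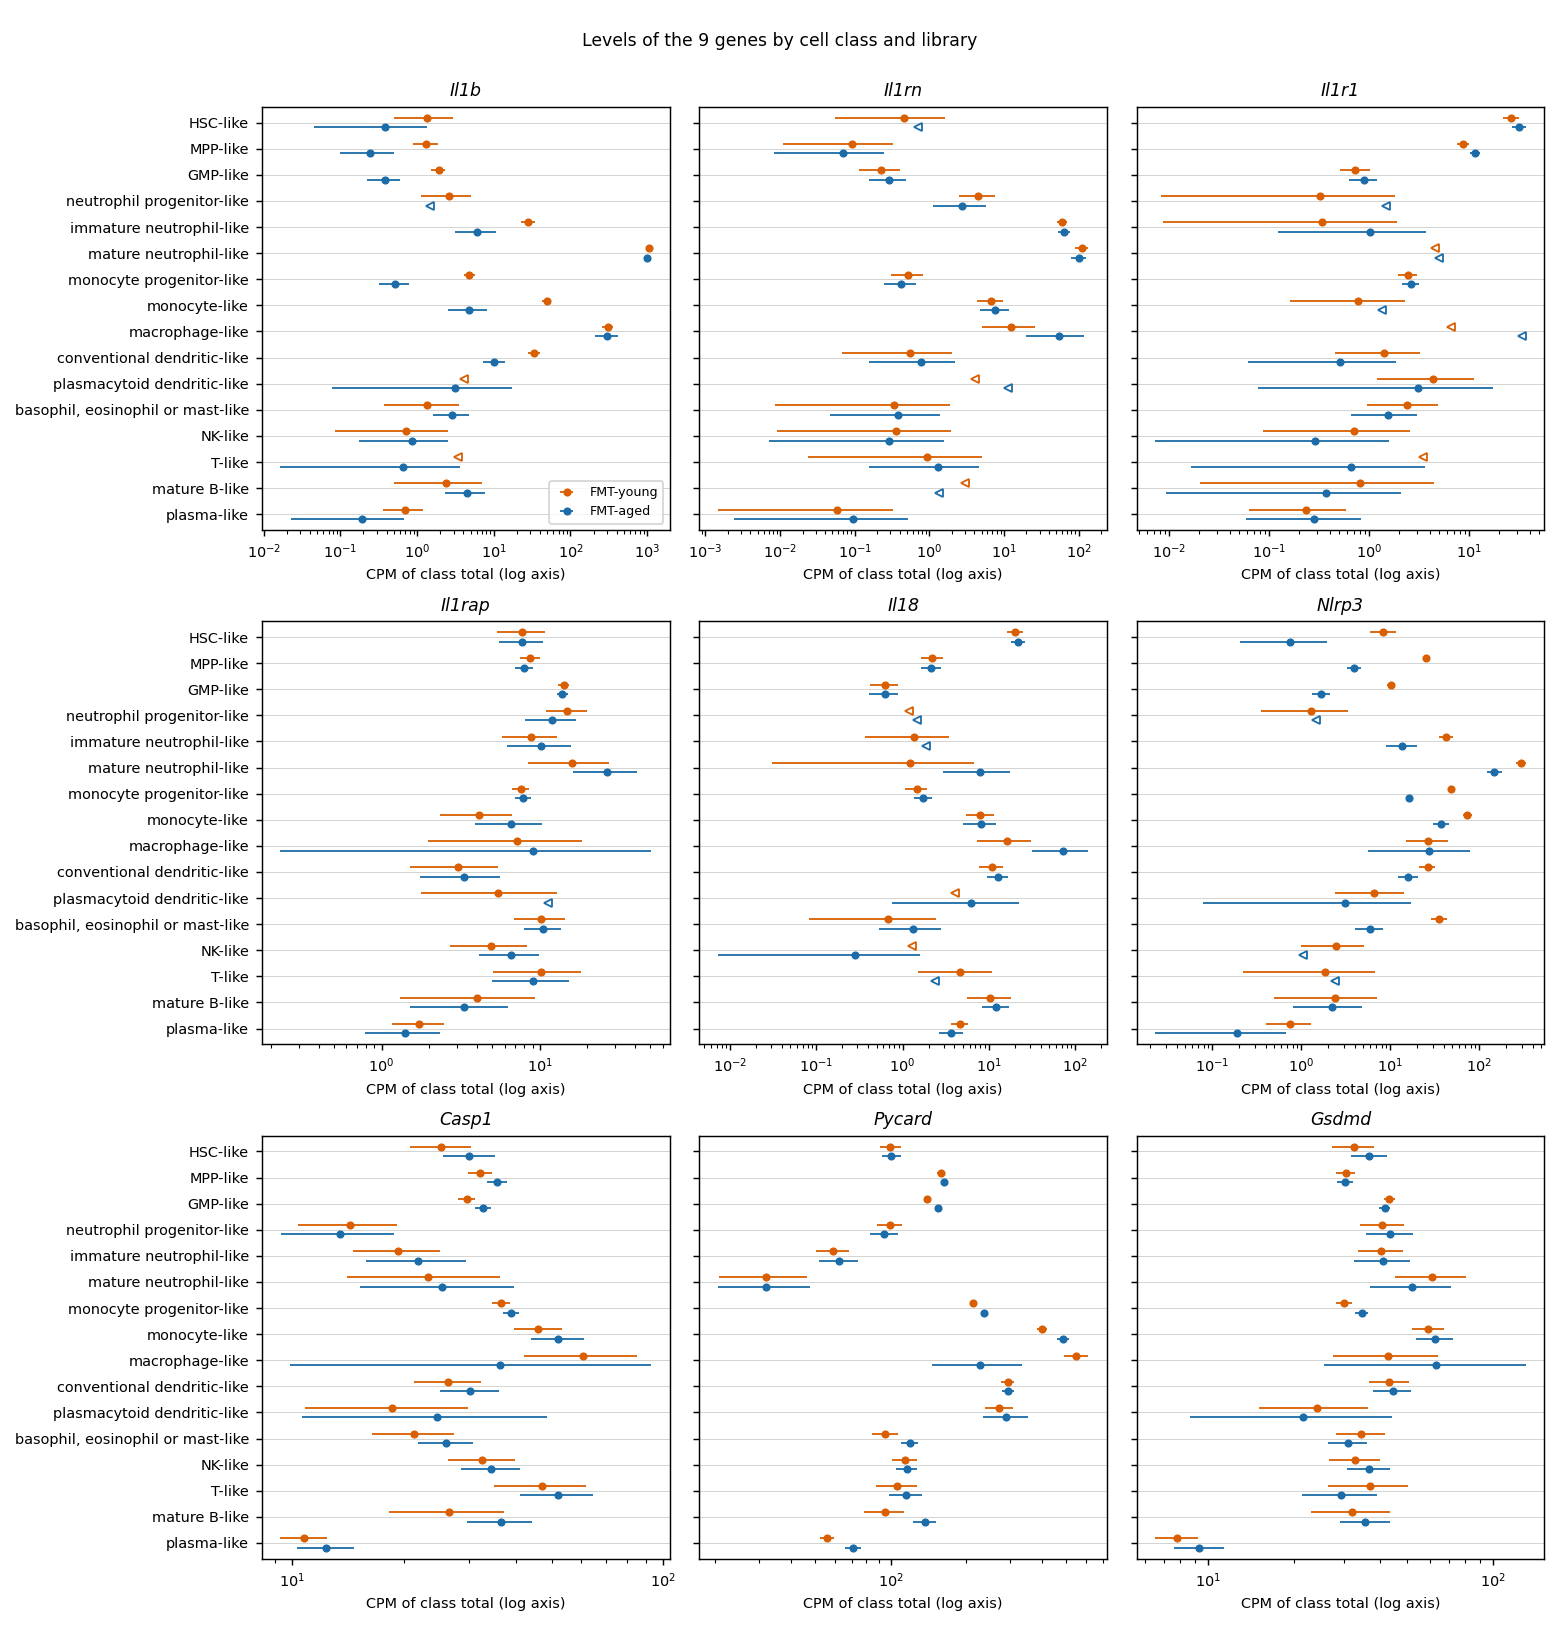
CPM on a log axis for each of the 9 genes by class, with FMT-young (orange) above FMT-aged (blue) and exact 95% Poisson intervals as bars. Open triangles stand at the upper limit where a library had no UMI. The libraries stand apart for Nlrp3 in HSC-like to monocyte-like rows (25.5 CPM in FMT-young and 3.95 CPM in FMT-aged in MPP-like cells), except neutrophil progenitor-like. They overlap for Il1rn and Gsdmd in most rows.

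Il1b was foremost a transcript of mature neutrophil-like cells, and there the libraries were alike in level. These cells held 857 UMIs in FMT-young and 747 UMIs in FMT-aged, or 1049 CPM in FMT-young and 996 CPM in FMT-aged (0.08, -0.07 to 0.22). Il1b also leads the genes that mark this cluster, though it was kept out of the clustering itself. The share of cells with an Il1b UMI was 58.0% in FMT-young and 58.1% in FMT-aged, or 48.1% in FMT-young and 46.3% in FMT-aged thinned. Macrophage-like cells, too few in FMT-aged to compare, came next with 305 CPM in FMT-young and 299 CPM in FMT-aged. The sign of the ratio in mature neutrophil-like cells changed with the processing, from -0.36 to 0.22.

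Outside mature neutrophil-like cells Il1b was higher in FMT-young in the other 6 classes with enough UMIs. Classes with too few UMIs went both ways, given here as FMT-young and FMT-aged counts. Plasma-like cells had 12 and 2, neutrophil progenitor-like cells 8 and 0, and HSC-like cells 6 and 2. Basophil, eosinophil or mast-like cells had 4 and 15, mature B-like cells 3 and 12, and NK-like cells 2 and 3. T-like and plasmacytoid dendritic-like cells each had 0 and 1. Monocyte-like cells held 189 UMIs in FMT-young and 13 in FMT-aged, or 48.7 CPM in FMT-young and 4.74 CPM in FMT-aged (3.36, 2.55 to 4.30). Those UMIs came from 56 of 380 cells in FMT-young and 8 of 276 cells in FMT-aged, with at most 15 in a cell in FMT-young and 4 in FMT-aged. Thinned shares were 5.33% in FMT-young and 0.37% in FMT-aged, against 0% in FMT-young (0 of 271 cells, up to 1.35%) and 0.27% in FMT-aged in T-like cells. The FMT-young share is thus above that of T-like cells, which should lack the gene. The FMT-aged shares rest on 1 of 270 monocyte-like cells and 1 of 375 T-like cells, too few to compare. Over all FMT-aged cells of each class, monocyte-like cells held 4.74 CPM (2.52 to 8.10) and T-like cells 0.65 CPM (0.02 to 3.62).

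Monocyte progenitor-like cells held 166 Il1b UMIs in FMT-young and 21 in FMT-aged, or 4.82 CPM in FMT-young and 0.517 CPM in FMT-aged (3.22, 2.56 to 3.95). MPP-like cells held 29 UMIs in FMT-young and 7 in FMT-aged (2.44, 1.21 to 3.87). GMP-like cells held 92 UMIs in FMT-young and 17 in FMT-aged, or 1.91 CPM in FMT-young and 0.376 CPM in FMT-aged (2.34, 1.59 to 3.18). The free RNA share there was estimated at 5.03% in FMT-young and 4.71% in FMT-aged. Barcodes under 100 UMIs held 15.8 CPM of Il1b in FMT-young and 10.1 CPM in FMT-aged, more than these progenitor classes did. Under other processing the GMP-like ratio ran from 1.08 to 6.67. Beyond its subtraction, the part of free RNA here was not tested. Conventional dendritic-like cells held 33.3 CPM in FMT-young and 10.2 CPM in FMT-aged (1.71, 1.19 to 2.27). Immature neutrophil-like cells held 83 UMIs in FMT-young and 12 in FMT-aged (2.20, 1.32 to 3.21), but 25 of the 83 were in 1 cell, and without the top cell of each library the ratio was 1.95. With a mitochondrial limit of 5% the immature neutrophil-like ratio was -0.27, from 30 UMIs in FMT-young and 28 in FMT-aged, and with each library clustered on its own the MPP-like ratio was -0.35, from 1 UMI in FMT-young and 4 in FMT-aged.

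Markers of other cell types are given beside these Il1b and Nlrp3 values, and their part in the ratios was not tested. The 10 mature neutrophil markers summed to 1509 CPM in FMT-young and 1477 CPM in FMT-aged in monocyte-like cells, with 0 of them in FMT-young and 1 in FMT-aged without a UMI. They summed to 839 CPM in FMT-young and 789 CPM in FMT-aged in GMP-like cells, to 945 CPM in FMT-young and 867 CPM in FMT-aged in monocyte progenitor-like cells and to 524 CPM in FMT-young and 417 CPM in FMT-aged in MPP-like cells. Immature neutrophil markers in GMP-like cells summed to 1653 CPM in FMT-young and 816 CPM in FMT-aged, with none at 0, and 2 of 9 were higher past the fold (1.61% of all genes). Monocyte markers in MPP-like cells summed to 1232 CPM in FMT-young and 854 CPM in FMT-aged, with none at 0, and 1 of 9 was higher past the fold (1.64% of all genes). Plasma markers in monocyte-like cells summed to 384 CPM in FMT-young and 229 CPM in FMT-aged. Late erythroid markers in immature neutrophil-like cells summed to 70.9 CPM in FMT-young and 6.60 CPM in FMT-aged, with 2 of 2 higher past the fold (2.27% of all genes) and 2 of 9 at 0 in FMT-young and 6 in FMT-aged.

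Conventional dendritic-like cells also differed in their own markers, which summed to 8249 CPM in FMT-young and 14350 CPM in FMT-aged, with none of 9 past the fold and none at 0. Plasmacytoid dendritic markers in this class summed to 487 CPM in FMT-young and 234 CPM in FMT-aged, and plasma markers to 1198 CPM in FMT-young and 197 CPM in FMT-aged. For each of these lists 3 genes were higher past the fold, of 6 and of 5 with enough UMIs, where 2.11% of all genes in the class were. Immature neutrophil markers summed to 77.6 CPM in FMT-young and 345 CPM in FMT-aged, with 7 of 7 lower past the fold, where 1.04% of all genes were. The part of these differences in the Il1b ratio of 1.71 and the Nlrp3 ratio of 0.72 in this class was not tested.

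Among thinned mature neutrophil-like cells, UMIs of both Il1b and Nlrp3 were found in 56 of 212 cells in FMT-young and 23 of 201 in FMT-aged. In FMT-young an Il1b UMI was found in 65.1% of 86 thinned cells with an Nlrp3 UMI (exact binomial interval 54.1% to 75.1%) and in 36.5% of 126 cells without (28.1% to 45.6%). In FMT-aged the shares were 48.9% of 47 cells (34.1% to 63.9%) and 45.5% of 154 cells (37.4% to 53.7%). Cells of a library are not replicates, and the difference between the libraries was not tested.

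Il18, the other cytokine cut by caspase-1, was not past the fold in any of 8 classes, with ratios from -0.25 to 0.33. Among compared classes it was highest in HSC-like cells, with 89 UMIs in FMT-young and 115 in FMT-aged, or 20.2 CPM in FMT-young and 21.7 CPM in FMT-aged (-0.11, -0.52 to 0.30). Conventional dendritic-like cells held 10.8 CPM in FMT-young and 12.7 CPM in FMT-aged, and mature B-like cells 10.4 CPM in FMT-young and 12.1 CPM in FMT-aged, so these 2 cannot be ordered. Macrophage-like cells held 16.1 CPM in FMT-young and 72.4 CPM in FMT-aged, from 9 UMIs in FMT-young and 8 in FMT-aged. Among compared classes, Il18 thus led in HSC-like cells and Il1b in mature neutrophil-like cells.

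Il1rn, the antagonist, was a neutrophil transcript, and no ratio passed the fold in 4 classes. Mature neutrophil-like cells held 110 CPM in FMT-young and 99.99 CPM in FMT-aged (0.14, -0.32 to 0.60). Immature neutrophil-like cells held 59.4 CPM in FMT-young and 64.5 CPM in FMT-aged (-0.12, -0.45 to 0.22). In monocyte-like cells, where Il1b was 10.3-fold higher in FMT-young, Il1rn was 6.70 CPM in FMT-young and 7.65 CPM in FMT-aged, from 26 UMIs in FMT-young and 21 in FMT-aged. Il1b in immature neutrophil-like cells was at 28.0 CPM in FMT-young and 6.09 CPM in FMT-aged, far under its mature level.

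Il1r1, the receptor subunit that binds the cytokine, was highest in HSC-like and MPP-like cells among classes with enough UMIs. HSC-like cells held 116 UMIs in FMT-young and 167 in FMT-aged, or 26.3 CPM in FMT-young and 31.6 CPM in FMT-aged (-0.26, -0.62 to 0.09). MPP-like cells held 8.70 CPM in FMT-young and 11.3 CPM in FMT-aged (-0.38, -0.65 to -0.12). Among classes with enough UMIs, monocyte progenitor-like cells followed at 2.44 CPM in FMT-young and 2.61 CPM in FMT-aged. Mature neutrophil-like cells had no UMI in either library, which allows up to 3.67 CPM in FMT-young and 4.00 CPM in FMT-aged at 3 counts. All 4 ratios with enough UMIs were below 0, and none passed the fold.

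A finer clustering at resolution 2.0 divided the stem-like cells and showed where the Il1r1 transcript lay, a division looked at after the data were seen. The cluster of 309 cells richest in Mecom (317 CPM over both libraries) and Procr (127 CPM), genes of long-term stem cells, held 3 Il1r1 UMIs, or 1.61 CPM. A cluster of 943 cells led by Myl10 and Hlf held 280 UMIs, or 33.4 CPM in FMT-young and 37.6 CPM in FMT-aged. That cluster had less Mecom (141 CPM) and Procr (37.3 CPM) and more Flt3, a receptor of multipotent and lymphoid-primed progenitors, with 176 CPM against 18.8 CPM in the first. A cluster led by Dntt and Flt3 had 12.8 CPM of Il1r1 in FMT-young and 18.3 CPM in FMT-aged. Il18, in contrast, was at 20.4 CPM in the first cluster and 21.2 CPM in the second. The low Il1r1 in the first cluster held in both libraries, with 1 UMI in FMT-young and 2 UMIs in FMT-aged.

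**Figure D4:**
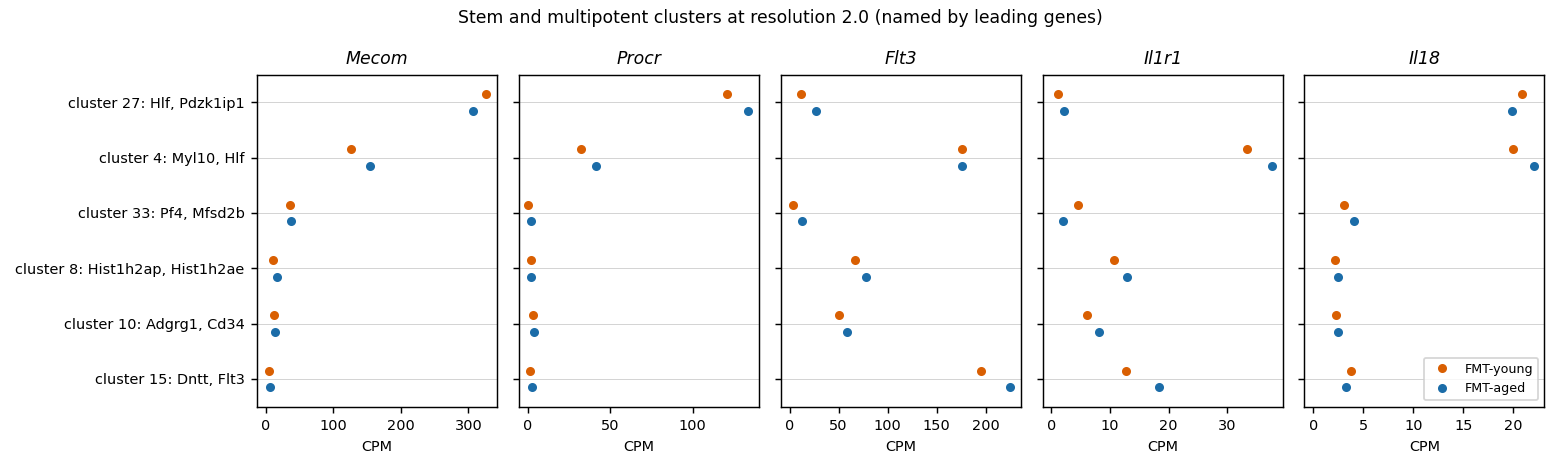
CPM of the stem cell genes Mecom and Procr, of Flt3, and of Il1r1 and Il18 in 6 clusters at resolution 2.0, with FMT-young (orange) above FMT-aged (blue). Il1r1 is near 0 in the top cluster (1.61 CPM over both libraries), where Mecom and Procr are highest, and highest in the second (35.7 CPM), while Il18 is about equal in both.

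Il1rap, the shared receptor subunit, was low and widespread. In 11 classes its ratios ran from -0.74 to 0.33, and all 11 intervals spanned 0. GMP-like cells held 14.1 CPM in FMT-young and 13.8 CPM in FMT-aged from 682 UMIs in FMT-young and 626 in FMT-aged. Neutrophil progenitor-like cells held 14.9 CPM in FMT-young and 11.9 CPM in FMT-aged, and HSC-like cells 7.71 CPM in FMT-young and 7.75 CPM in FMT-aged. Mature neutrophil-like cells had the highest mean at 15.9 CPM in FMT-young and 26.7 CPM in FMT-aged, but from 13 UMIs in FMT-young and 20 in FMT-aged, so their place at the top is uncertain. MPP-like cells had both receptor subunits, and mature neutrophil-like cells had UMIs of Il1rap and none of Il1r1. The cluster richest in Mecom and Procr had 21 UMIs of Il1rap beside its 3 of Il1r1.

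Genes of the same pathway outside the 9 were read as lists. Of 7 other ligands, 1 had enough UMIs, Il1f9 (interleukin 36 gamma), at 617 CPM in FMT-young and 505 CPM in FMT-aged in mature neutrophil-like cells (0.29, 0.09 to 0.48). Of 54 pairs of other receptors and binding proteins, 4 were at least 2-fold higher in FMT-young and 3 lower, which is 7.41% and 5.56%, where 1.86% and 1.72% of all pairs were. The pairs past the fold in this and the next lists were named after their values were seen. The higher ones were Il18r1 (1.47) and Il1r2 (1.37) in conventional dendritic-like cells and Il18bp (2.03) and Il1rl2 (1.24) in neutrophil progenitor-like cells. The lower ones were Il18r1 in basophil, eosinophil or mast-like cells (-1.37) and in neutrophil progenitor-like cells (-1.29), and Sigirr in plasma-like cells (-1.54). Il1r2, the decoy receptor, was at 202 CPM in FMT-young and 237 CPM in FMT-aged in mature neutrophil-like cells (-0.23, -0.55 to 0.08). Of 149 pairs of receptor signalling genes, none was higher past the fold and 3 were lower, or 2.01%, near the 1.72% of all pairs. These were Irak4 in T-like cells (-1.04) and, in mature neutrophil-like cells, Irak1 (-2.36, from 7 UMIs in FMT-young and 33 in FMT-aged) and Myd88 (-1.09, from 44 UMIs in FMT-young and 86 in FMT-aged). In NK-like cells the adaptor gene Myd88 was at 17.3 CPM in FMT-young and 26.8 CPM in FMT-aged (-0.63, -1.16 to -0.11), and Tab2, of the kinase complex downstream, at 244 CPM in FMT-young and 282 CPM in FMT-aged (-0.21).

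Of 80 pairs of other sensors, 2 were higher past the fold and none lower, or 2.50%, near the 1.86% of all pairs, so the count is no result about the list. The 2 were Nlrp12 in MPP-like cells (1.24) and Aim2 in neutrophil progenitor-like cells (1.43). Naip2, which detects bacterial proteins, was at 46.1 CPM in FMT-young and 55.0 CPM in FMT-aged in monocyte-like cells (-0.25, -0.58 to 0.07). Of 57 pairs of other caspases and effectors, none was higher and 1 was lower, or 1.75%, near the 1.72% of all pairs. That pair was Casp4, the caspase of the noncanonical inflammasome (caspase-11), in mature neutrophil-like cells, at 20.8 CPM in FMT-young and 44.0 CPM in FMT-aged from 17 UMIs in FMT-young and 33 in FMT-aged (-1.08, -2.02 to -0.19). Ninj1, which ruptures the membrane of dying cells, was at 142 CPM in FMT-young and 148 CPM in FMT-aged there. Of 102 pairs of upstream genes and modulators, none was higher and 1 was lower, or 0.98%, below the 1.72% of all pairs, Gbp2 in mature B-like cells (-1.02). Txnip, which binds thioredoxin, was at 274 CPM in FMT-young and 329 CPM in FMT-aged in plasmacytoid dendritic-like cells. The median ratio over the pairs of other sensors was 0.04, against 1.65 for Nlrp3 over its 9 classes.

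For each member the genes with the most similar pattern were ranked among 4998 genes by Pearson's r of log2(CPM + 10) over 30 points, the 15 classes in 2 libraries. The points share libraries and depth, and r is a description. Nearest to Il1b were Acod1 (0.94), Sfxn5 (0.93) and Cd300ld (0.92), and nearest to Il1rn were Fpr1 and Scrg1 (0.99 each) and Il1f9 (0.98). Nearest to Nlrp3 were Ccl6 (0.87), Tlr2 (0.86) and Ftl1 (0.85). Nearest to Il1r1 were Mecom, Stxbp4 (0.93 each) and Ppp1r9a (0.92), and nearest to Il18 were Tbc1d9, Csad (0.76 each) and Procr (0.69). The likeness of Il1r1 to Mecom is one over broad classes. At the finer clustering, the cluster with 317 CPM of Mecom held 1.61 CPM of Il1r1, and that with 141 CPM of Mecom held 35.7 CPM.

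The nearest genes to Pycard were Psmd8 (0.96), Rnh1 and Npc2 (0.94 each). Those to Casp1 were Atp1b3 (0.86), Ms4a6b and G3bp2 (0.82 each). Those to Gsdmd were Arpc1b, Arpc2 and Cotl1 (0.89 to 0.90), and those to Il1rap were Atrn (0.86), Yaf2 (0.85) and Ccdc125 (0.83). Between members, r was 0.84 for Nlrp3 with Il1b, 0.81 for Il1b with Il1rn and -0.10 for Nlrp3 with Pycard. The patterns of the sensor and the cytokine were thus alike over classes, and that of the adaptor was not.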

How the data were processed

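The deposited matrices hold raw counts of UMIs per gene and barcode, made by the authors with Cell Ranger (version 3.1.0 per the file headers) and mm10, per the submitters' processing notes. The deposited gene and barcode lists, of unit other, hold names only. A cell had at least 1000 UMIs, 500 genes and at most 10% mitochondrial UMIs. The highest doublet scores, from a reimplemented Scrublet score, were removed, 1139 FMT-young and 1031 FMT-aged cells. Libraries were clustered together (2000 variable genes without members and pathway genes, 40 principal components, Leiden at resolution 1.0, leidenalg 0.10.2, igraph 0.11.9, no batch correction) and named from 20 marker lists. A name needed 3 markers in at least 10% of cells at 1.5 times the rest and, among the 10 leading genes, at least as many own markers as all others together. This rule was set after clusters were looked at. Plasma-like cells lie mostly in different clusters in the 2 libraries, with 919 FMT-young and 4 FMT-aged cells in the largest. Mature B-like clusters hold cells of both libraries, with 130 FMT-young and 317 FMT-aged cells in the larger and 194 and 198 in the other.

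UMIs were summed per class and library and given as CPM with exact Poisson intervals, and ratios with exact conditional binomial intervals (scipy 1.17.1), at 95%, with a prior count of 0.5 where a count was 0. With 1 library per group there was no test. The calculation was tested on simulated data. Genes that are no member were named by rule: in each list's leading class the 2 in each direction by the interval bound nearest 0 and the highest in CPM, and 3 by likeness for each member. Pathway genes past the fold in other classes were named after their values were seen. Members, lists and markers were chosen with earlier results of these data known. Alternatives were other cell limits, clusterings, scalings, thinning and free RNA subtraction, and leaving out the cell with most UMIs of a gene, the last added after seeing the data.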

Additional observations from a re-analysis of the deposited data

Results flagged for a closer look

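Signals outside the compared classes were seen in 4 cases. Nlrp3 in barcodes under 100 UMIs had a ratio of 1.96, from 416 UMIs in FMT-young and 100 in FMT-aged. In barcodes over the mitochondrial limit, which were not called as cells, Nlrp3 had a ratio of 1.86 (56.9 CPM in FMT-young and 15.7 CPM in FMT-aged). In the same barcodes Il1r1 had a ratio of -1.55, from 7 UMIs in FMT-young and 25 in FMT-aged. In the 3 unnamed clusters Nlrp3 had a ratio of 1.48, from 108 UMIs in FMT-young and 5 in FMT-aged. These clusters hold 775 FMT-young and 143 FMT-aged cells, so their mix of cells differs between the libraries.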

How the results depend on the processing

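Nlrp3 kept its direction in all 133 alternative values, from 0.43 to 3.98, and Il1b in 96 of 103. Of 1276 alternative ratios, 1175 stayed inside the counting interval of the reported ratio and 99 left it. Reversal was counted only for ratios past the fold, and 2 reversed, Il1b in MPP-like cells with each library clustered on its own (-0.35) and in immature neutrophil-like cells at a mitochondrial limit of 5% (-0.27). The 12 pairs higher past the fold became 19 without doublet removal and 5 in thinned cells, where fewer UMIs enter. The 0 pairs lower past the fold became 1 at a mitochondrial limit of 5%, 2 at 20%, 1 with doublets kept, 1 with marker-score classes, 1 with the mean over cells, 3 thinned, 1 at 10 UMIs and 2 at a fold of 1.5. The shares over all genes under these settings are not given here, so these counts are no result about the members. Il1r1 in HSC-like cells was -1.75 with at least 2000 UMIs per cell, -1.08 at resolution 2.0, both from a smaller class with 4 and 3 UMIs in all, and -0.84 thinned. Thinned values were -0.54 for Il18 in HSC-like cells and 0.42 for Casp1 in T-like cells. Il1b in mature neutrophil-like cells was -0.36 and -0.21 at mitochondrial limits of 5% and 20%, -0.12 without doublet removal, -0.23 without gene families in the clustering, -0.26 by marker score and 0.22 with TMM scaling. Nlrp3 there was 0.62 at the limit of 20%. The cause of the other moves was not tested. No paired analysis was possible because each group is 1 library. Depth limits ratios on few UMIs, such as Nlrp3 in HSC-like cells, with 4 UMIs in FMT-aged.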

Other observations

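An unnamed cluster led by Ear2 and Ace, of 64 FMT-young and 39 FMT-aged cells, had Il1b at 282 CPM in FMT-young (72 UMIs) and 151 CPM in FMT-aged (15 UMIs). Nlrp3 had 15 UMIs in FMT-young and 0 in FMT-aged there. Pycard was at 125 CPM in FMT-young and 141 CPM in FMT-aged in the same cells. Over the unnamed clusters together Il1b was lower in FMT-young, at 10.8 CPM against 19.9 CPM in FMT-aged.

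Over all kept cells of a library, without regard to class, Nlrp3 was at 23.8 CPM in FMT-young and 7.69 CPM in FMT-aged, and Il1b at 11.5 CPM in FMT-young and 6.03 CPM in FMT-aged. Il1r1 was at 2.93 CPM in FMT-young and 4.23 CPM in FMT-aged over all cells. HSC-like and MPP-like cells, where Il1r1 is highest, made up 5.31% and 9.97% of FMT-young cells, against 6.59% and 13.3% of FMT-aged cells.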
